A study of Mus musculus with 21 samples.

Results

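The genes described here were 9 enzymes of glucose breakdown (Hk1, Gpi1, Aldoa, Gapdh, Pgk1, Pgam1, Eno1, Pkm and Ldha) and Pdk1, a kinase that controls the fate of pyruvate. They were matched by gene name in the table of sorted spleen T cells, and all 10 were found among its 12994 genes. The 10 genes were chosen by pathway with the values of this same table already known, so their levels and differences are given as a description, and the adjusted p-values quoted give their place in fits of all genes and not independent support. CD4+ and CD8+ T cells were sorted by flow cytometry from spleen. The female C57BL6/J mice entered an enriched environment (EE) or a standard environment (SE) at an age of 4 weeks and stayed there for 4 weeks. EE was a large cage holding many mice with running wheels and other objects, and SE was an ordinary cage with fewer mice and no such objects. The groups were CD4+ EE (n = 6), CD4+ SE (n = 5), CD8+ EE (n = 6) and CD8+ SE (n = 4), and 9 of the 12 mice gave both populations. No allele, drug or antibody treatment is given in the labels for these mice. The mice of an environment came from the same cage, so cage and environment cannot be told apart. Sample numbers below are mouse numbers, and the same number in EE and SE marks different mice.

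Glycolysis turns glucose into pyruvate in the cytosol and yields ATP without oxygen. Pyruvate is then either reduced to lactate by lactate dehydrogenase or taken into mitochondria, where the pyruvate dehydrogenase complex converts it into acetyl-CoA. Pyruvate dehydrogenase kinases such as Pdk1 phosphorylate that complex and switch it off. Resting T cells burn most of their pyruvate in mitochondria, and activated T cells raise glycolysis and lactate output. Many glycolytic genes, with Ldha and Pdk1, are textbook targets of the hypoxia-inducible factor HIF-1.

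The libraries held between 145546 and 221454 molecules (median 182470). Each value is a normalized count, the number of distinct cDNA molecules scaled by a factor for the depth of the library. Cd4 and the summed Cd8a and Cd8b1 separated the sorts, with Cd4 at 42.8 to 85.8 in CD4+ samples and at most 0.966 in CD8+ samples, and the CD8 genes at 275 to 337 in CD8+ samples and at most 9.15 in CD4+ samples. The 6 B cell markers summed to between 35.0 and 292.9 in CD4+ samples (median 184.7) and between 33.0 and 100.5 in CD8+ samples (median 45.1), and 2 of them were at 0 in every CD8+ sample. The 5 erythroid markers summed to at most 26.7 in 19 samples, and to 580.5 in CD8+ EE sample 6 and 1033 in CD8+ SE sample 3. These sorted samples are bulk samples, so fewer cells of a type and less RNA per cell cannot be told apart.

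Promoter sequence is shown for Pdk1, which had the largest difference between EE and SE among the members in CD8+ T cells, and for Ldha, whose window held the most copies of the HIF-1 core motif among the members. RefSeq windows on GRCm38.p6 reach from 250 bases before to 50 bases after a transcript start, and all 10 members matched, with 18 windows. The motif searched was ACGTG or GCGTG on either strand, that is CACGT or CACGC when read on the printed strand, and a palindromic CACGTG counts once on each strand. Only bases outside annotated exons are printed, 5′ to 3′ on the gene's strand, with the motif in capitals. The Pdk1 stretch lies on the plus strand at chr2:71872974-71873223, directly before the annotated start of the gene. The Ldha stretch lies on the plus strand at chr7:46845554-46845803, outside exons but inside the span that the annotation gives to the gene.
Pdk1: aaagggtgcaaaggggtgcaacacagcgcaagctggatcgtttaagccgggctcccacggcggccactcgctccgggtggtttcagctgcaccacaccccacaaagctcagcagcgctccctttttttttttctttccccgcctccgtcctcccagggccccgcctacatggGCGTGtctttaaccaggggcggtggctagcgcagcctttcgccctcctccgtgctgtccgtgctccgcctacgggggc
Ldha: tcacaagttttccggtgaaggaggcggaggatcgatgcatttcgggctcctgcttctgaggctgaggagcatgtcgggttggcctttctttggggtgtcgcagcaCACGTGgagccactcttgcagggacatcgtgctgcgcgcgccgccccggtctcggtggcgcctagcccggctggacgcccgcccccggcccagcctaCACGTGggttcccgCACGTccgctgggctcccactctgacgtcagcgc
The Ldha stretch held 5 matches, of which 4 belonged to its CACGTG palindromes, and the Pdk1 stretch held 1 match. Over the whole 300-base windows there were 7 matches for this Ldha start and 2 for the Pdk1 start. At least 1 match was present in 13 of the 18 member windows (72.2%), against 43.8% of the 32817 windows of all genes, and in a window of 9 of the 10 members, against 46.7% of all genes. Some member windows overlap and hold the same match, as for Aldoa, so windows are not independent. The 10 members had 18 windows and the 26994 genes had 32817, so a member had more windows in which to hold a match. Gpi1 was the member without a match. CACGTG was held by the Ldha window printed here and by no other member window, beside 7.15% of the windows of all genes. These matches describe letters in a window and are no evidence of binding in these cells.

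The members differed widely in level. Gapdh (ENSMUSG00000057666, chr6:125161715-125166467, minus strand), which oxidizes glyceraldehyde-3-phosphate and makes NADH, had the highest mean over all samples, 118.9 ± 19.2 (SD, n = 21). Pkm (ENSMUSG00000032294, chr9:59656368-59679375, plus strand), the pyruvate kinase that yields pyruvate and ATP, followed with 98.1 ± 22.4. Ldha (ENSMUSG00000063229, chr7:46841475-46855627, plus strand), which reduces pyruvate to lactate, had 65.6 ± 13.1. Each of these genes ranked among the upper 3% of the 12994 genes of the table, at ranks 193, 229 and 333.

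Eno1, the enolase, had 50.5 ± 7.69 (SD, n = 21) and Aldoa, the aldolase that splits the phosphorylated sugar, 46.8 ± 5.94. Gpi1, the glucose-6-phosphate isomerase, had 40.4 ± 7.99. Pdk1 (ENSMUSG00000006494, chr2:71873224-71903858, plus strand, 11 exons) had 33.0 ± 8.65, above Pgk1, the phosphoglycerate kinase, with 21.9 ± 4.54. Hk1, a hexokinase that starts the pathway by phosphorylating glucose, had 8.23 ± 2.99, and Pgam1, the phosphoglycerate mutase, 5.77 ± 3.29. Pgam1 was counted in 1 to 13 molecules per sample, and 5 of the 21 samples held at most 3 molecules of it. Relative to its level, its values thus carry the largest counting error among the members.

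Most neighbours in this order overlapped. Pkm exceeded Ldha in 21 of 21 samples and Pgk1 exceeded Hk1 in 21 of 21, and the means of these pairs, and of Pdk1 and Pgk1, lay further apart than their joint SD. The other 6 neighbouring pairs did not differ beyond their spread over all samples. Within populations this held for 5 of them in each. In CD8+ samples Gapdh, with 109.1 ± 16.4 (SD, n = 10), exceeded Pkm, with 78.5 ± 10.1, in 10 of 10 samples and by more than the joint SD, while in CD4+ samples it was the higher one in 6 of 11. In CD4+ samples Ldha, with 69.7 ± 14.9 (SD, n = 11), stood above Eno1, with 50.8 ± 8.49, by more than the joint SD and in 9 of 11 samples. Per kilobase of principal transcript the order was Gapdh (83.8 normalized counts per kb), Pkm (40.3), Ldha (37.2), Aldoa (31.0), Eno1 (24.9), Gpi1 (14.0), Pgk1 (12.0), Pdk1 (6.36), Pgam1 (3.25) and Hk1 (2.14). The libraries were tagged at the start of each transcript, where a transcript gives a molecule whatever its length, so the order by molecules is the more direct one.

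Some of these genes have near-identical copies whose molecules could have been split between rows. The copies of Gapdh in the table numbered 24 and summed to 16.1 normalized counts, 13.5% of the level of Gapdh itself. Pgk1 had 1 copy row, Pgk1-rs7, with 6.95 normalized counts, and Eno1 had 3 copy rows with 13.5 in all, of which Eno1b held 9.02. The rows of Hk1, Aldoa, Ldha and Pdk1 had no such copy in the table, and the Pkm copy held 1.69. With the copies added to their parent genes, no member gained or lost a call in any comparison.

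**Figure D1:**
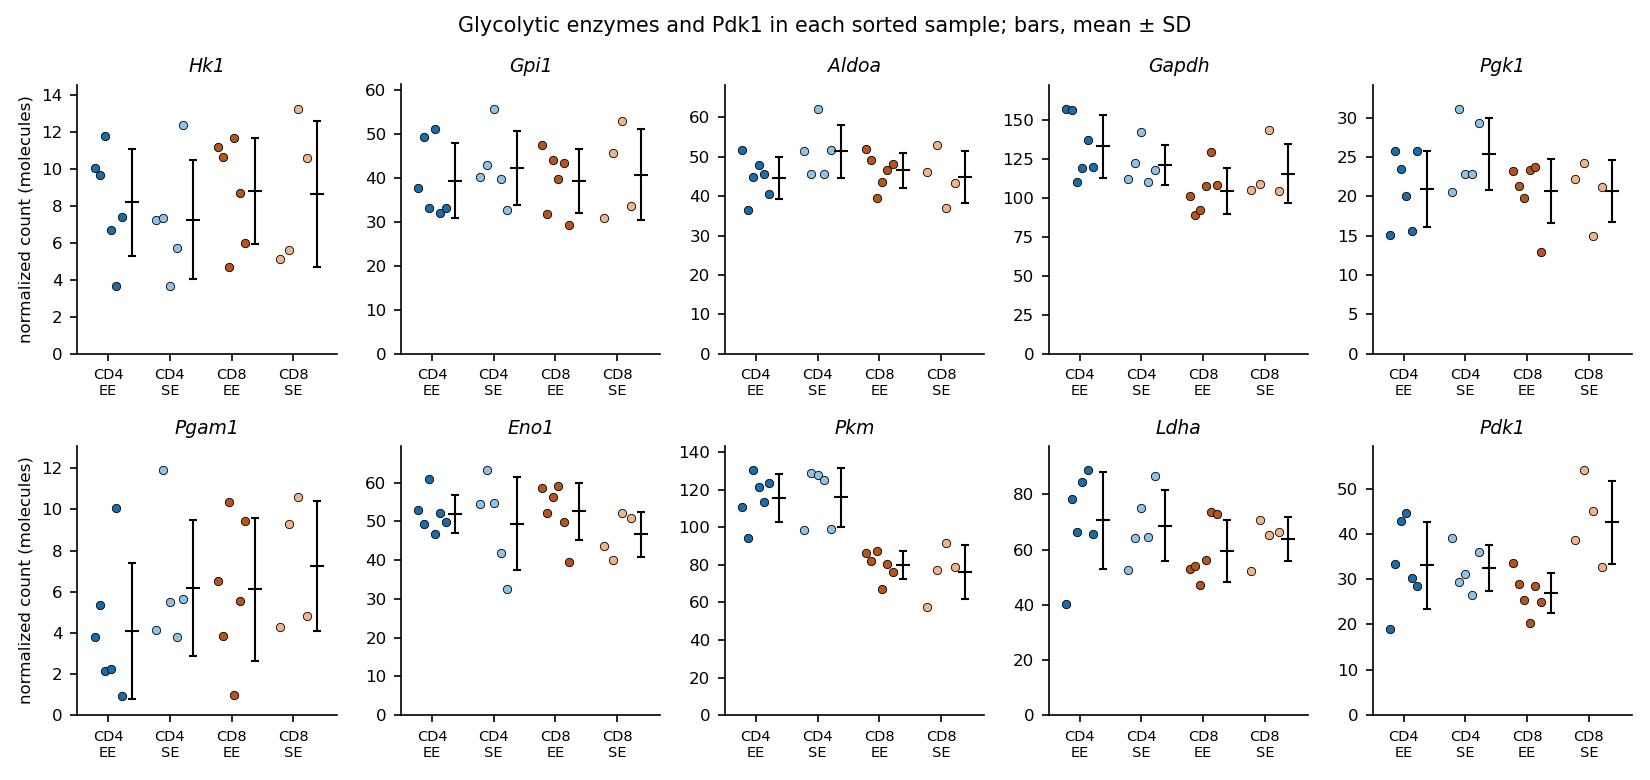
Normalized count (molecules, linear axis from 0) of each member in each sample of the CD4+ EE (n = 6), CD4+ SE (n = 5), CD8+ EE (n = 6) and CD8+ SE (n = 4) groups, with mean ± SD beside the points. Pkm lies at 94.4 to 130.4 in the CD4+ samples and at 57.4 to 91.8 in the CD8+ samples, and the groups of the other 9 genes overlap between the populations.

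The comparison of the sorted populations asked how CD4+ T cells differ from CD8+ T cells. Pkm was higher in CD4+ T cells. Its lowest, median and highest normalized counts were 94.4, 117.4 and 130.4 in the CD4+ EE samples, and it had 98.8, 129.0, 128.0, 125.4 and 99.1 in CD4+ SE samples 1, 3, 4, 5 and 6. In the CD8+ EE samples the lowest, median and highest were 67.0, 81.4 and 87.4, and CD8+ SE samples 1, 2, 3 and 6 had 57.4, 77.3, 91.8 and 78.8. Every CD4+ sample was above every CD8+ sample. The means were 115.8 ± 13.3 (SD, n = 11) and 78.5 ± 10.1 (SD, n = 10). On the log2(normalized count + 1) scale the difference was 0.57 (SE 0.09), a 1.48-fold difference, with an adjusted p of 1.1e-05 in limma and the rank 79 by p among 7938 genes.

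Of the 10 members, 1 passed the adjusted threshold of 0.05 in this comparison, against 349 of all 7938 genes (4.4%), of which 185 were higher in CD4+ T cells (2.33%) and 164 lower (2.07%). The groups did not overlap for 69 of all genes (0.869%), Pkm among them. Within single mice, Pkm was higher in CD4+ than in CD8+ T cells in 9 of 9 mice, by 0.20 to 0.85 on the log2 scale. In EE samples alone the difference was 0.52 (adjusted p = 0.00358) and in SE samples alone 0.61 (adjusted p = 0.0212). The interaction of environment and population for Pkm was -0.08 (SE 0.19, adjusted p = 0.994 in limma). Pkm passed the threshold in each fit that left out 1 sample, with differences from 0.50 to 0.61.

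The B cell markers were also higher in most CD4+ samples, and their part in the Pkm difference was not tested over all samples. In CD4+ SE sample 1, whose B cell markers summed to 35.0, within the range of the CD8+ samples, Pkm was 98.8. This was above the highest CD8+ value of 91.8, and it was also below all but 1 of the other CD4+ samples. The CD8+ samples with high erythroid markers had Pkm at 76.4 (CD8+ EE sample 6) and 91.8 (CD8+ SE sample 3).

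Gapdh lay in the same direction but did not pass the threshold. Its lowest, median and highest normalized counts were 110.1, 128.5 and 157.4 in CD4+ EE samples and 88.9, 104.6 and 129.7 in CD8+ EE samples. CD4+ SE samples 1, 3, 4, 5 and 6 had 112.2, 122.6, 142.6, 110.2 and 118.3, and CD8+ SE samples 1, 2, 3 and 6 had 105.3, 108.9, 144.0 and 104.8. The populations overlapped. The difference was 0.21 (SE 0.09), with an adjusted p of 0.232 in limma and higher values in CD4+ T cells in 8 of 9 mice. In EE samples alone it was 0.34 with an adjusted p of 0.0999, which became 0.0425 with the mouse as a replicate block, a fit chosen after seeing the data, and in SE samples alone it was 0.07 with an adjusted p of 0.949. The interaction of Gapdh was 0.27 (SE 0.18, adjusted p = 0.994 in limma), so a difference between the environments was not shown.

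For the other members the CD4+ minus CD8+ difference did not pass the threshold. Ldha had 69.7 ± 14.9 (SD, n = 11) in CD4+ and 61.2 ± 9.71 (SD, n = 10) in CD8+ samples, a difference of 0.16 (SE 0.12). Pgk1 differed by 0.15 (SE 0.16), Aldoa by 0.06 (SE 0.12), Gpi1 by 0.03 (SE 0.13) and Eno1 by 0.02 (SE 0.12). Hk1 differed by -0.16 (SE 0.25), Pgam1 by -0.36 (SE 0.32) and Pdk1 by -0.06 (SE 0.14). The direction of Pdk1 was not settled. It was 0.25 in EE samples alone (adjusted p = 0.646 in limma), -0.37 in SE samples alone (adjusted p = 0.635) and 0.05 with the mouse as a replicate block, and Pdk1 was higher in CD4+ T cells in 7 of 9 mice. Aldoa also turned, with -0.07 in EE samples alone and 0.19 in SE samples alone. For Aldoa, Gpi1 and Eno1 the populations differed by less than the spread between samples. The median difference of the 10 members was 0.05, beside -0.01 over all genes tested.

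**Figure D2:**
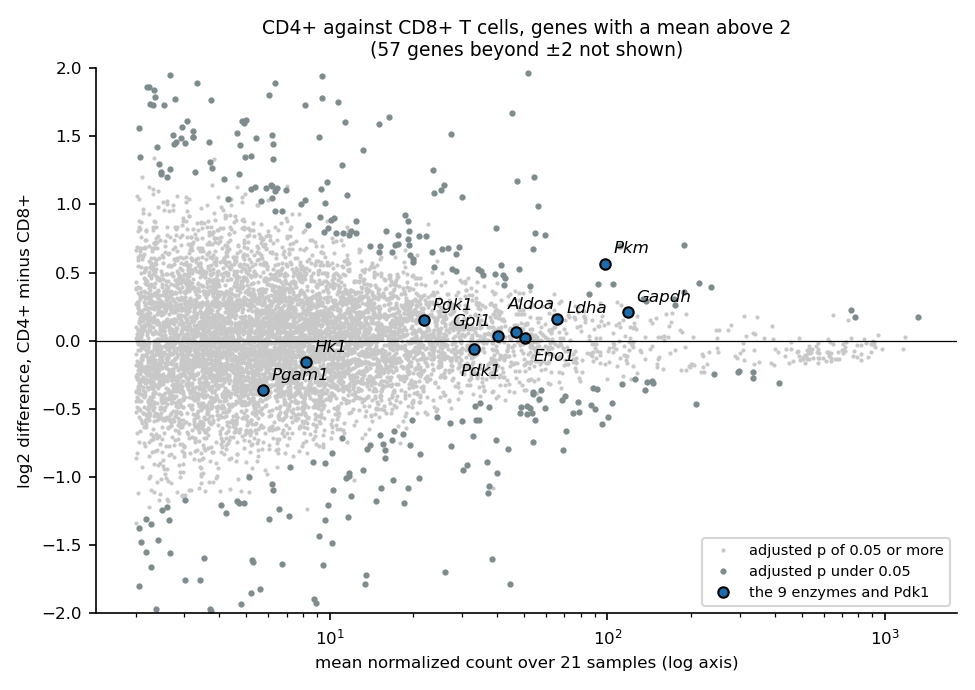
CD4+ minus CD8+ log2 difference (vertical axis) against the mean normalized count over 21 samples (log axis) for the genes with a mean above 2, with genes past an adjusted p of 0.05 in dark grey, the members in blue and 57 genes beyond a log2 difference of 2 left out. Pkm (0.57) stands apart from the other members, which lie between -0.36 and 0.21.

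The 9 enzymes were also added up in each sample. Their sum had a mean of 488.3 ± 30.3 normalized counts (SD, n = 11) in CD4+ and 420.9 ± 34.1 (SD, n = 10) in CD8+ samples, or 0.282% and 0.240% of all molecules, with ranges of 441.7 to 550.4 and 367.4 to 482.2 that overlapped. The B cell markers moved with it (medians of 184.7 and 45.1), and their part was not tested over all samples. CD4+ SE sample 1, with the lowest B cell sum of the CD4+ samples (35.0), also had their lowest enzyme sum, 441.7. Most of the difference in the sum lay in Pkm (means of 115.8 and 78.5) and Gapdh (127.8 and 109.1). Hk1 (7.77 and 8.74) and Pgam1 (5.04 and 6.57) went the other way. Pkm made up 23.7% ± 2.61 (SD, n = 11) of the enzyme molecules in CD4+ and 18.7% ± 1.91 (SD, n = 10) in CD8+ samples. Gapdh made up 26.2% ± 3.14 and 25.9% ± 2.55. The share of Gapdh thus hardly differed over the pooled environments. It was 27.3% in CD4+ EE against 25.0% in CD8+ EE samples, but 24.8% in CD4+ SE against 27.2% in CD8+ SE samples. The share of Pkm was larger in CD4+ samples by more than the SD of either population.

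**Figure D3:**
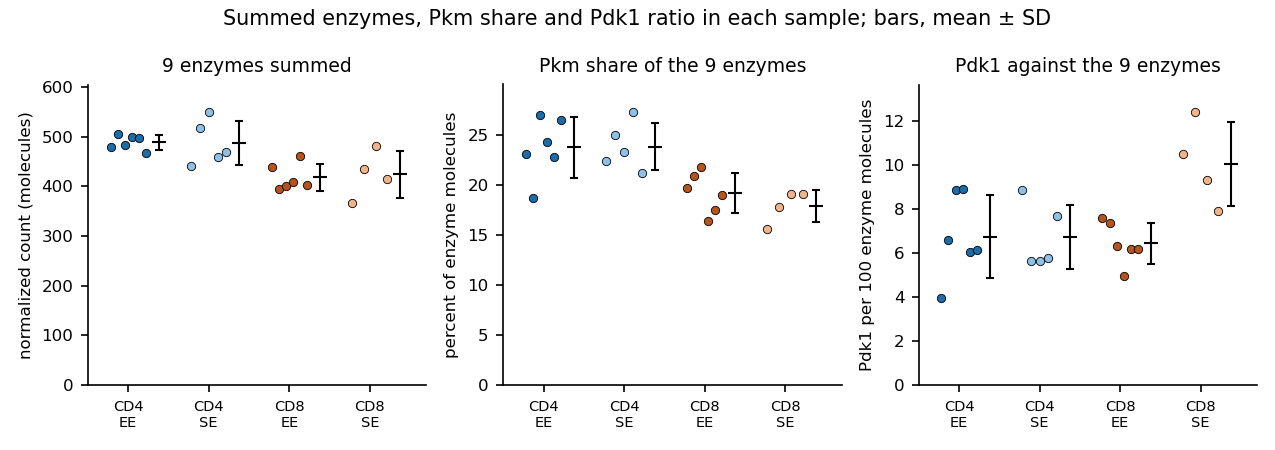
Summed normalized count of the 9 enzymes, percent of these molecules that were Pkm, and Pdk1 per 100 enzyme molecules in each sample of the 4 groups, on linear axes from 0 with mean ± SD beside the points. The CD8+ SE samples lie at 7.89 to 12.4 Pdk1 per 100 enzyme molecules and the CD8+ EE samples at 4.98 to 7.61.

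The comparison of EE with SE asked whether the housing changed the transcripts of T cells. In CD4+ T cells, 0 of the 10 members passed the adjusted threshold in limma, beside 1 of 7939 genes (0.0126%), and 0 had an unadjusted p under 0.05. The member differences ranged from -0.63 to 0.17, with a median of -0.01 beside 0.00 over all genes tested. The EE samples had a mean Pkm of 115.7 ± 12.6 (SD, n = 6) and the SE samples 116.1 ± 15.7 (SD, n = 5), a difference of 0.00 (SE 0.13). Ldha had 70.6 ± 17.6 and 68.6 ± 12.9, a difference of 0.02 (SE 0.17), and Gapdh 133.4 ± 20.3 and 121.2 ± 13.0, a difference of 0.13 (SE 0.13).

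Of the other enzymes in CD4+ T cells, Hk1 differed by 0.17 (SE 0.37) and Eno1 by 0.10 (SE 0.18). Gpi1 differed by -0.10 (SE 0.19), Aldoa by -0.20 (SE 0.17) and Pgk1 by -0.28 (SE 0.23). With single samples left out, Hk1 ranged from -0.01 to 0.37, Eno1 from -0.03 to 0.20 and Gpi1 from -0.19 to -0.0006. Pgam1 had the largest difference, -0.63 (SE 0.46), from 4.08 ± 3.31 in EE to 6.19 ± 3.29 in SE, where SE sample 3 held 13 molecules and the others 4 to 6, and EE sample 5 held 11 and the others 1 to 5. It was -0.40 without SE sample 3 or without EE sample 6, and -0.90 without EE sample 5. No member separated the CD4+ groups, beside 36 of all genes that did (0.453%).

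Pdk1 in CD4+ T cells had a lowest, median and highest normalized count of 18.9, 31.7 and 44.5 in EE, and 39.1, 29.3, 31.1, 26.6 and 36.0 in SE samples 1, 3, 4, 5 and 6. The SE values lay within the EE range. The means were 33.0 ± 9.54 (SD, n = 6) and 32.4 ± 5.09 (SD, n = 5), and the difference was -0.01 (SE 0.21).

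In CD8+ T cells, Pdk1 was the member with the largest difference. Its lowest, median and highest normalized counts were 20.4, 26.9 and 33.5 in EE, and SE samples 1, 2, 3 and 6 had 38.5, 54.0, 45.0 and 32.7. The values of 5 of the 6 EE samples were below every SE value, and EE sample 1, with 33.5, overlapped with SE sample 6. The means were 26.9 ± 4.45 (SD, n = 6) and 42.6 ± 9.15 (SD, n = 4). The difference was -0.63 (SE 0.20), or 1.55-fold, with an unadjusted p of 0.00219 from limma and the rank 23 by p among 7840 genes, but an adjusted p of 0.680. It did not pass the adjusted threshold in any alternative fit, in which the adjusted p ranged from 0.496 to 1.00. Of all 7840 genes, 0 passed in limma (0%), as in edgeR and DESeq2, and 413 had an unadjusted p under 0.05 in limma.

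The direction of the Pdk1 difference held in each fit that left out 1 CD8+ sample, from -0.75 without SE sample 6 to -0.51 without SE sample 2. It was -0.60 without SE sample 3 and -0.61 without EE sample 6, the samples with high erythroid markers. The myeloid markers, of which 2 of the 6 listed were in the table, separated the same groups. Their sum was 0 in all 6 CD8+ EE samples and 0.857, 5.59, 1.77 and 12.5 in CD8+ SE samples 1, 2, 3 and 6, and their part in the Pdk1 difference was not tested. The sums of CD8+ SE samples 1 and 3 stand for very few molecules, so the markers separated the groups only narrowly. CD8+ SE sample 6, with the highest myeloid sum, had the lowest Pdk1 of the CD8+ SE samples (32.7). Against the enzymes, Pdk1 stood at 10.5, 12.4, 9.34 and 7.89 per 100 enzyme molecules in CD8+ SE samples 1, 2, 3 and 6, and at 4.98 to 7.61 (median 6.25) in the CD8+ EE samples. This ratio was chosen after its values were seen, and the gap between the groups was from 7.61 to 7.89, while Pdk1 itself overlapped. In CD4+ T cells the mean ratio of the EE samples was 6.74 ± 1.89 (SD, n = 6), beside 6.73 ± 1.47 (SD, n = 5) for the SE samples. The interaction of environment and population for Pdk1 was 0.62 (SE 0.29), with an unadjusted p of 0.0355 from limma and an adjusted p of 0.994, beside 0 of 7938 genes past the threshold in limma, edgeR or DESeq2 (0%) and 393 with an unadjusted p under 0.05 in limma. Blocked by mouse (replicate block), the Pdk1 interaction was 0.40 (SE 0.33), with an unadjusted p of 0.236. The Pdk1 difference in CD8+ T cells was thus not shown to differ from that in CD4+ T cells.

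The 9 enzymes of CD8+ T cells showed no such difference. The EE samples had a mean sum of 418.3 ± 26.6 (SD, n = 6), beside 424.7 ± 47.6 (SD, n = 4) for the SE samples. Pkm differed by 0.08 (SE 0.14), Ldha by -0.11 (SE 0.15), Gapdh by -0.14 (SE 0.12) and Eno1 by 0.16 (SE 0.16). Pgk1 differed by 0.00 (SE 0.24), Aldoa by 0.06 (SE 0.17), Gpi1 by -0.04 (SE 0.19), Hk1 by 0.06 (SE 0.35) and Pgam1 by -0.33 (SE 0.42). All of these were within the spread between samples, and no member separated the CD8+ groups, beside 83 of all genes that did (1.06%). Gapdh in CD8+ SE was moved by sample 3, with 144.0 against 104.8 to 108.9 in the others, and without it the difference was -0.03. With single samples left out, Pgam1 ranged from -0.52 without SE sample 1 to 0.00 without EE sample 4, and Hk1 from -0.13 without SE sample 1 to 0.28 without SE sample 3.

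**Figure D4:**
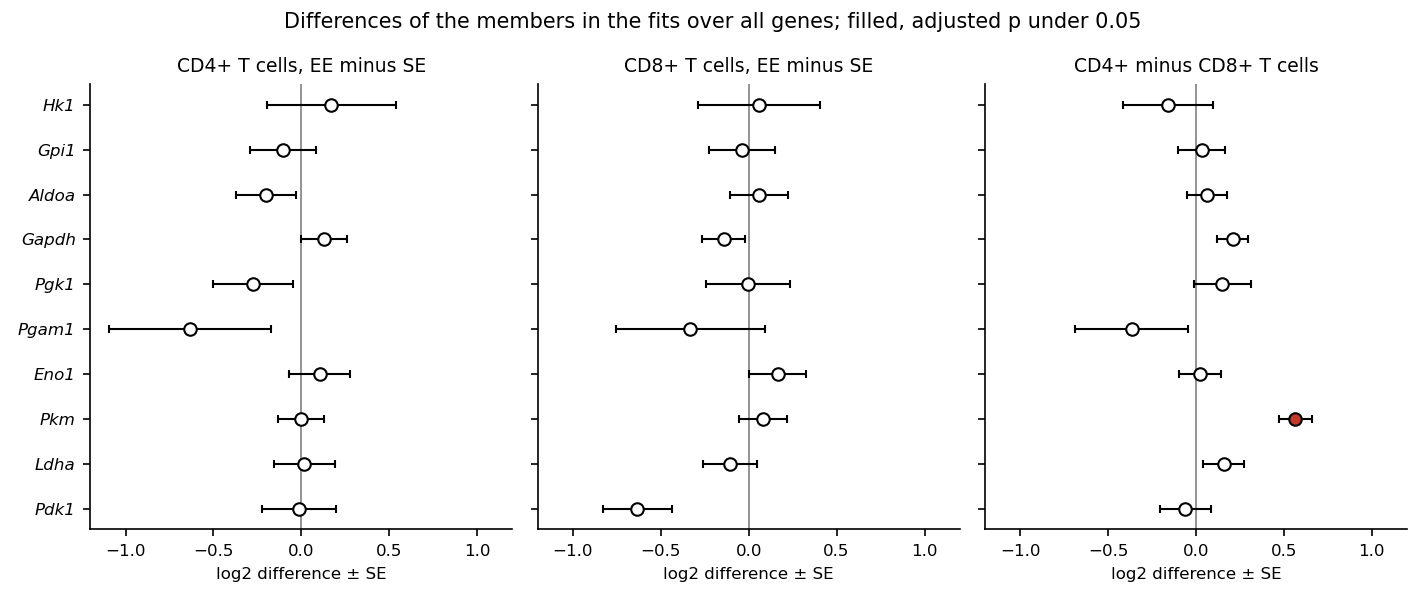
Log2 difference ± SE of each member on the log2(normalized count + 1) scale for EE minus SE in CD4+ T cells (6 and 5 samples), EE minus SE in CD8+ T cells (6 and 4 samples) and CD4+ minus CD8+ T cells (11 and 10 samples), with a filled point for an adjusted p under 0.05. The filled point is Pkm between the populations (0.57), and Pdk1 in CD8+ T cells (-0.63) is open.

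The members did not move together from sample to sample. Over the 45 pairs of members, Pearson's r across the 21 samples ranged from -0.42 to 0.41 with a median of 0.04, and after the group means were removed it ranged from -0.44 to 0.46 with a median of 0.06. The points share library and depth, and counting error draws such r towards 0. The spread within groups was close to counting error for Aldoa (0.85 times the SD that counting gives), Pgk1 (0.96), Hk1 (1.13) and Eno1 (1.14), and was largest against it for Ldha (1.67) and Gapdh (1.57). Pdk1 had 1.30 and Pkm 1.27.

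The genes most like Pdk1 over the 21 samples, by Pearson's r of log2(normalized count + 1) among 2719 genes with a mean above 10, were Gm6204 (r = 0.66), AI413582 (0.63) and Mrpl14 (0.63). Those most like the summed enzymes were Izumo1r (0.79), Tesc (0.78) and Mlec (0.77). These values are descriptive, picked as the highest of many, and the enzyme sum differed between the populations in the same samples.

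The surrounding genes of the pathway were read from lists. For glucose import, 3 of 4 listed genes were in the table and 2 were tested, of which 0 passed the threshold in any comparison. For other glycolytic isoenzymes and regulators, 15 of 24 were in the table and 4 were tested between the populations, of which 0 passed. Of the 7 genes of the pentose phosphate pathway, which branches off glycolysis to make NADPH and ribose, 6 were tested and 0 passed. For lactate and pyruvate handling, 10 of 21 were tested between the populations, of which 1 was higher and 0 lower in CD4+ T cells. For HIF-1, its regulators and its targets outside glycolysis, 10 of 15 were tested, of which 1 was higher and 1 lower. In all, 3 of the 32 list genes tested passed between the populations, beside 349 of 7938 genes (4.4%). Between EE and SE, 0 genes of these lists passed in limma in either population, with 0 of 31 in CD4+ and 3 of 32 in CD8+ T cells at an unadjusted p under 0.05, beside 462 of 7939 and 413 of 7840 of all genes.

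The higher gene of the pyruvate list was Ldhb (ENSMUSG00000030246), the lactate dehydrogenase subunit that favours the turning of lactate back into pyruvate. Its lowest, median and highest normalized counts were 5.53, 11.3 and 13.9 in CD4+ EE samples and 0, 2.58 and 5.83 in CD8+ EE samples. CD4+ SE samples 1, 3, 4, 5 and 6 had 6.18, 9.15, 6.40, 3.80 and 7.88, and CD8+ SE samples 1, 2, 3 and 6 had 7.71, 1.86, 1.77 and 10.6. The CD8+ SE samples reached into the CD4+ range. Ldhb was counted in 0 to 11 molecules in CD8+ samples, with at most 3 in 6 of 10 samples, and in 4 to 13 molecules in CD4+ samples. The difference was 1.12 (SE 0.31), with an adjusted p of 0.0205 in limma and higher values in CD4+ T cells in 7 of 9 mice. With the mouse as a replicate block it was 1.08 with an adjusted p of 0.0817, in edgeR the adjusted p was 0.0509 and in DESeq2 0.0555. It was 1.75 in EE samples alone (adjusted p = 0.00424) and 0.49 in SE samples alone (adjusted p = 0.842), and the interaction was 1.26 (SE 0.63, adjusted p = 0.994). The call was lost without CD8+ EE sample 3 (0.95, adjusted p = 0.0508), CD8+ SE sample 2 (0.97, adjusted p = 0.0811) or CD8+ SE sample 3 (0.96, adjusted p = 0.0835).

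Ddit4, a stress-induced inhibitor of mTORC1 signalling, was the higher gene of the HIF-1 list. It had 22.0 ± 7.53 (SD, n = 11) in CD4+ and 12.9 ± 4.09 (SD, n = 10) in CD8+ samples, with ranges of 9.27 to 30.4 and 7.45 to 22.1 that overlapped. The difference was 0.71 (SE 0.20), with an adjusted p of 0.0227 in limma, and it was in the same direction in 9 of 9 mice. With the mouse as a replicate block it was 0.51 with an adjusted p of 0.207. It was 0.55 in EE samples alone (adjusted p = 0.275) and 0.87 in SE samples alone (adjusted p = 0.240), neither past the threshold. The call was also lost, at differences of 0.61 to 0.67, without any of 5 samples. These were CD4+ EE sample 6 (adjusted p = 0.0547), CD4+ SE sample 5 (0.0505), CD4+ SE sample 6 (0.0516), CD8+ SE sample 1 (0.0793) and CD8+ SE sample 2 (0.0982). The B cell markers moved with the Ddit4 difference (medians of 184.7 and 45.1), and their part was not tested over all samples. In CD4+ SE sample 1, with B cell markers at 35.0, Ddit4 was 9.27, inside the CD8+ range, against 26.5 to 30.4 in the other CD4+ SE samples.

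Mif, which encodes a cytokine that restrains macrophage migration, was lower in CD4+ T cells. It had 63.8 ± 20.1 (SD, n = 11) in CD4+ and 87.4 ± 15.5 (SD, n = 10) in CD8+ samples, with ranges of 37.5 to 102.0 and 67.0 to 117.3. The populations overlapped through CD4+ EE sample 1 with 102.0 and CD4+ SE sample 6 with 98.0. The difference was -0.53 (SE 0.12), with an adjusted p of 0.00247 in limma and lower values in CD4+ T cells in 7 of 9 mice. It was -0.77 in SE samples alone (adjusted p = 0.00870) and -0.28 in EE samples alone (adjusted p = 0.385), and the interaction was 0.49 (SE 0.24, adjusted p = 0.994), or 0.32 (adjusted p = 0.924) with the mouse as a replicate block. For Ldhb and Mif too, B cell markers differed between the populations in the same samples, and their part was not tested over all samples. In CD4+ SE sample 1 these markers summed to 35.0, and Ldhb was 6.18 and Mif 61.8. Both values were within the range of the other CD4+ SE samples. The Ldhb value also lay inside the CD8+ range of 0 to 10.6, and the Mif value lay below the CD8+ range.

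Hif1a, which encodes the regulated subunit of HIF-1, did not pass the threshold in any of the 4 comparisons as fitted over all their samples. It had 15.4 ± 6.80 (SD, n = 6) in CD4+ EE, 11.4 ± 6.72 (SD, n = 5) in CD4+ SE, 5.21 ± 3.90 (SD, n = 6) in CD8+ EE and 10.3 ± 3.23 (SD, n = 4) in CD8+ SE samples. In CD8+ T cells the EE samples held 2 to 13 molecules and the SE samples 7 to 17. The EE minus SE difference there was -1.02 (SE 0.40, adjusted p = 0.898 in limma), beside 0.51 (SE 0.34, adjusted p = 0.878) in CD4+ T cells. The interaction was 1.53 (SE 0.54, adjusted p = 0.924). Myeloid markers also separated the CD8+ EE and SE groups, narrowly and by few molecules in some samples, and their part was not tested. The CD4+ minus CD8+ difference of Hif1a was 0.73 (SE 0.27, adjusted p = 0.128 in limma), and 0.53 (adjusted p = 0.442) with the replicate block. It was 1.50 in EE samples alone (adjusted p = 0.00405, and 0.00177 with the replicate block) and -0.03 in SE samples alone (adjusted p = 0.993). In EE the B cell markers summed to 140.3 to 224.2 in CD4+ and 33.0 to 100.5 in CD8+ samples, and their part was not tested. The Hif1a difference also passed without CD8+ EE sample 2 (0.86, adjusted p = 0.0458) or without CD4+ SE sample 1 (0.86, adjusted p = 0.0457). CD4+ SE sample 1, with B cell markers at 35.0, had the lowest Hif1a of the CD4+ samples, 4.12. This value was inside the CD8+ range of 1.86 to 14.6.

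**Figure D5:**
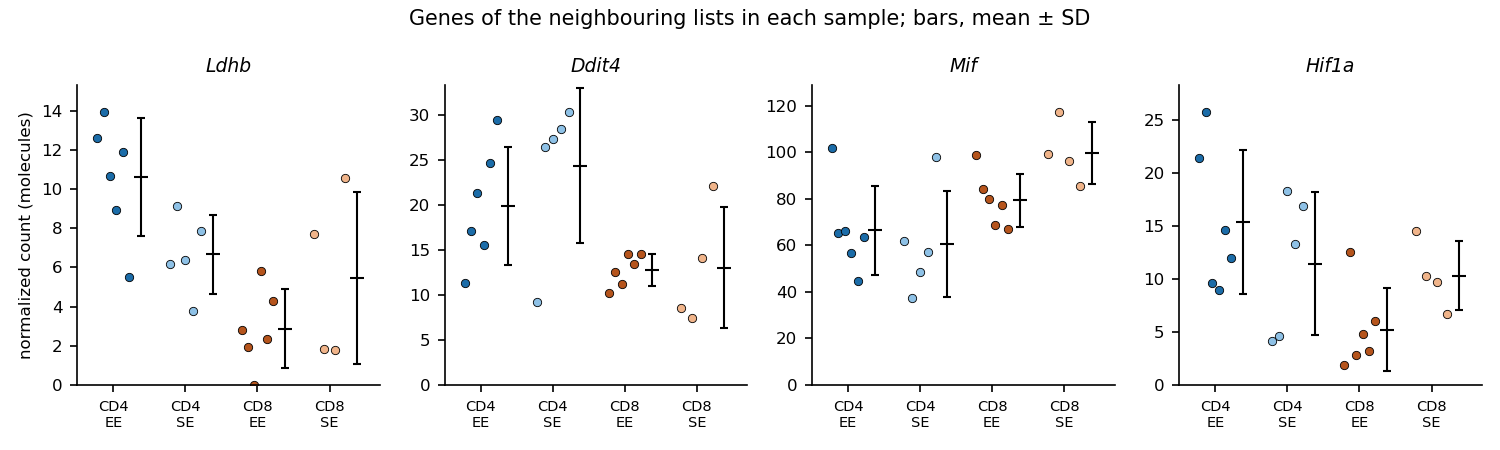
Normalized count (molecules, linear axis from 0) of Ldhb, Ddit4, Mif and Hif1a in each sample of the 4 groups, with mean ± SD beside the points. Ldhb lies at 3.80 to 13.9 in the CD4+ samples and at 0 to 10.6 in the CD8+ samples, and each of these genes overlaps between the populations.

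Other genes around pyruvate were measured at moderate levels and did not pass the threshold in any of the 4 comparisons. Pdha1 and Pdhb, subunits of the pyruvate dehydrogenase enzyme on which Pdk1 acts, had 11.9 ± 4.99 and 12.0 ± 3.37 (SD, n = 21). Mpc1 and Mpc2, which form the mitochondrial pyruvate carrier, had 15.2 ± 4.45 and 17.1 ± 5.57. Bsg, the chaperone of lactate transporters, had 20.6 ± 6.45, and differed by 0.54 (SE 0.24, adjusted p = 0.923 in limma) between EE and SE in CD8+ T cells. Tkt, Taldo1 and Pgls of the pentose phosphate pathway had 15.2 ± 4.75, 35.3 ± 7.46 and 25.5 ± 4.61, and the mitophagy receptor Bnip3l had 23.2 ± 6.34. The EE minus SE difference of Pdha1 in CD8+ T cells was 0.46 (SE 0.33) and that of Pdhb 0.15 (SE 0.30), neither beyond the spread between samples.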

How the data were processed

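RNA of 21 samples of spleen CD4+ and CD8+ T cells was sequenced by the authors with unique molecular identifiers on an Ion Proton instrument. Reads were trimmed with cutadapt and aligned with STAR 2.4.0a to mm10, molecules were counted with Drop-seq tools on an Ensembl model of GRCm38, rare genes were filtered and DESeq2 was used for normalization. The deposited signal is the molecule count divided by a size factor, and 100% of values gave whole molecules when divided by the smallest value of their sample (within 1e-05). The depth was 145546 to 221454 molecules per sample.

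The 10 members, the pathway lists and the cell type markers were chosen with earlier results of these data known. All members are named. List genes are named with their levels where their mean was above 10, or with their differences where they passed an adjusted threshold. Values given for Hif1a, Bsg, Pdha1 and Pdhb between groups were chosen after their values were seen, as were the members' sum and ratios.

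Differences were fitted with limma 3.58.1 (trend) in R 4.3.3 on log2(normalized count + 1), which understates changes of genes with few molecules, for genes with a mean above 2 in the samples of the fit, with Benjamini-Hochberg adjustment over all genes tested and a threshold of 0.05. Environments were compared within a population, and populations and the interaction over all 21 samples. p-values measure the spread between mice that shared a cage. As alternatives, the pseudocount was 0.5, the minimum mean was dropped or set above 10, totals were made equal, and tests were run with edgeR 4.0.16 and DESeq2 1.42.0 on recovered molecules, with all samples, with a replicate block, within single environments and with each sample left out. The sum with near-identical copies (at least 300 aligned bases, at least 90% identity) and the block within EE were added after seeing the data. The fits were tested on simulated data.

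The labels give CD4+ and CD8+ samples of a mouse the same number, so these are paired. Deviations from group means within the 9 pairs had a mean r of 0.0140. Of the gene names, 12490 matched a symbol and 504 did not. Positions and transcripts are from GENCODE M21 and promoter windows from RefSeq on GRCm38.p6. Python 3.11.15 with NumPy 2.4.6, pandas 2.3.3, SciPy 1.17.1 and Matplotlib 3.10.9 was used. Some genes are not reported here.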

Additional observations from a re-analysis of the deposited data

Results flagged for a closer look

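In 4 of 52 sets of values (a gene in a group of 4 to 6 samples), 1 sample lay apart from the rest by Dixon's criterion, which chance alone meets in about 1 of 20 sets, or 2.6 of these. Gapdh was 144 in CD8+ SE sample 3, against 104.8 to 108.9 in the other 3 samples, and Pgk1 was 12.9 in CD8+ EE sample 6, against 19.7 to 23.7. These were the samples with erythroid marker sums of 1033 and 580.5, whose part in the values was not tested. Pgam1 was 11.9 (13 molecules) in CD4+ SE sample 3, against 3.80 to 5.63. Ddit4 was 9.27 (9 molecules) in CD4+ SE sample 1, against 26.5 to 30.4, the sample with the lowest sum of B cell markers among CD4+ samples (35.0), whose part was not tested either.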

How the results depend on the processing

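Pkm passed the threshold between the populations in all alternatives run. Of 992 values recomputed for the 40 differences of the members, 983 moved by less than the standard error of the reported value, 8 moved further with no change of call and 1 gained a call (Gapdh in EE samples alone with the replicate block). A sign other than the one reported appeared for 19 of the 40 differences, none larger than 0.33. The number of genes past the threshold between EE and SE in CD4+ T cells, 1, was 0 with a pseudocount of 0.5, a mean above 10, all 21 samples or the replicate block, 3 without a filter and 2 in edgeR, and 0 to 3 with single samples left out. In CD8+ T cells, 0 became 3 without a filter and 2 with the replicate block, and 0 to 3 with single samples left out. Between the populations, 349 became 216 with a mean above 10, 227 in EE samples alone, 105 in SE samples alone and 311 with the replicate block (mouse), and 300 to 362 with single samples left out. The interaction had 0 in every fit. The causes were not tested, apart from the fewer genes or samples that some alternatives hold by construction. Between EE and SE the block rests on a shared number alone (5 CD4+ pairs with a mean r of 0.00833, and 4 CD8+ pairs with 0.00522). The block changed the calls of Ldhb and Ddit4 between the populations, and that of Gapdh in EE samples alone, and no other call of the members, Ldhb, Ddit4 or Mif. Pgam1, with a mean of 5.77, had standard errors of 0.42 to 0.46 between EE and SE on the log2 scale and a spread within groups of 1.42 times the SD that counting gives.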
